A study of Mus musculus with 12 samples.

Results

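The transcripts of the transforming growth factor-β (TGF-β) ligands, receptors and Smads were examined in RNA of sorted alveolar type II (ATII) cells, the surfactant-producing cells of the lung alveolus. The 10 genes were chosen by symbol, namely the ligands Tgfb1, Tgfb2 and Tgfb3, the receptors Tgfbr1 and Tgfbr2, the receptor-activated Smad2 and Smad3, the common Smad4, and the inhibitory Smad6 and Smad7. They were 10 of the 23238 gene symbols in the files, and all 10 passed the filter on low counts that left 13054 genes tested. The 12 libraries came from 12 mice, with 3 mice in each of 4 groups. Con mice carried undeleted p300 and received PBS into the trachea, and BLM mice were the same kind of mouse given 4 mg/kg bleomycin, a drug that injures the lung and leads to fibrosis. KO mice had p300, the histone acetyltransferase encoded by Ep300, deleted in ATII cells and received PBS, and KOBLM mice had the same deletion and received bleomycin. The labels describe tamoxifen (10 mg/kg) at 8 weeks of age for all groups alike, while the study's text also mentions a vehicle in place of tamoxifen for sorted ATII cells, so whether Con and BLM mice received tamoxifen is not settled here. Exon 9 of p300 was floxed, and the Cre recombinase was a tamoxifen-inducible CreERT2 driven by the surfactant protein C (Spc) promoter. The deletion was therefore meant for ATII cells alone, and other cells of the same lungs kept p300. The labels call Con mice wild type, while the study's text calls them Spc-p300 f/f in one place and C57BL/6 in another, so whether they carried the floxed allele is not settled here. ATII cells were sorted as CD74+ EpCAM+ lung cells.

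TGF-β is made as a latent dimer that is stored in the matrix and released by integrins, thrombospondin or proteases. Active ligand binds the type II receptor (Tgfbr2), which recruits and phosphorylates the type I receptor (Tgfbr1), and Tgfbr1 phosphorylates Smad2 and Smad3. These pair with Smad4, enter the nucleus and act on target genes together with cofactors that include p300 and its relative CBP (Crebbp). Smad6 and Smad7 are themselves targets of the pathway and restrain it at the receptor. In the lung TGF-β is known as a central driver of fibrosis.

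Libraries held between 7005005 and 11153154 counts each, read from the 3′ end of transcripts. One read was counted per fragment near that end, so levels of different genes were compared without a length correction. Levels are given as CPM, counts relative to library size scaled by the trimmed mean of M values, and 3 counts, or 0.269 to 0.428 CPM depending on the library, were taken as the floor of detection. The targeted gene was not lower in the libraries labelled KO: Ep300 stood at 152, 184 and 92.7 CPM in KO, at 134, 145 and 47.6 CPM in Con, at 177, 53.2 and 105 CPM in KOBLM and at 121, 100.6 and 34.3 CPM in BLM. Reads at the 3′ end do not cover exon 9, so these values do not check the labels, and any effect of the deletion on the remaining transcript was not tested. The study itself reported the loss of p300 by reverse-transcription PCR of isolated ATII cells and by immunofluorescence of lungs. Markers of macrophages summed to more than those of ATII cells in all 12 libraries (915 to 37529 CPM over 17 markers against 202 to 2196 CPM over 12 markers), which goes against a label of ATII cells alone. In such bulk RNA, fewer cells of a type and less RNA per cell cannot be told apart. The library BLM 3 stood apart from the rest. It had counts on 6847 genes, against 8790 to 13838 in the other 11 libraries, and 12 pluripotency markers summed to 2148 CPM there against 0.583 to 18.2 CPM elsewhere. For the 10 genes, fitted changes that involve the BLM group are therefore given with and without it.

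The receptors were the most abundant of the 10 transcripts. Tgfbr2 averaged 202 CPM over the 12 libraries (range 37.2 to 365) and lay above 93.6% of tested genes, and Tgfbr1 averaged 112 CPM (42.2 to 214) and lay above 86.9%. Tgfbr2 exceeded Tgfbr1 in 11 of 12 libraries, by 89.3 ± 82.6 CPM (mean ± SD, n = 12, exact permutation p = 0.00146, two-sided). Tgfbr1 in turn exceeded Smad7, the next in order, in 10 of 12 libraries, by 72.4 ± 66.6 CPM (exact permutation p = 0.00195). Smad7 (40.0 CPM), Smad4 (39.6 CPM), Smad2 (34.97 CPM) and Smad6 (24.0 CPM) formed the middle of the order. Smad3 (10.9 CPM), Tgfb2 (9.60 CPM), Tgfb1 (9.29 CPM) and Tgfb3 (4.62 CPM) were lowest. None of the other 7 neighbouring pairs in this order differed beyond the spread between libraries (exact permutation p between 0.0605 and 0.953, 9 pairs compared, unadjusted).

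**Figure D1:**
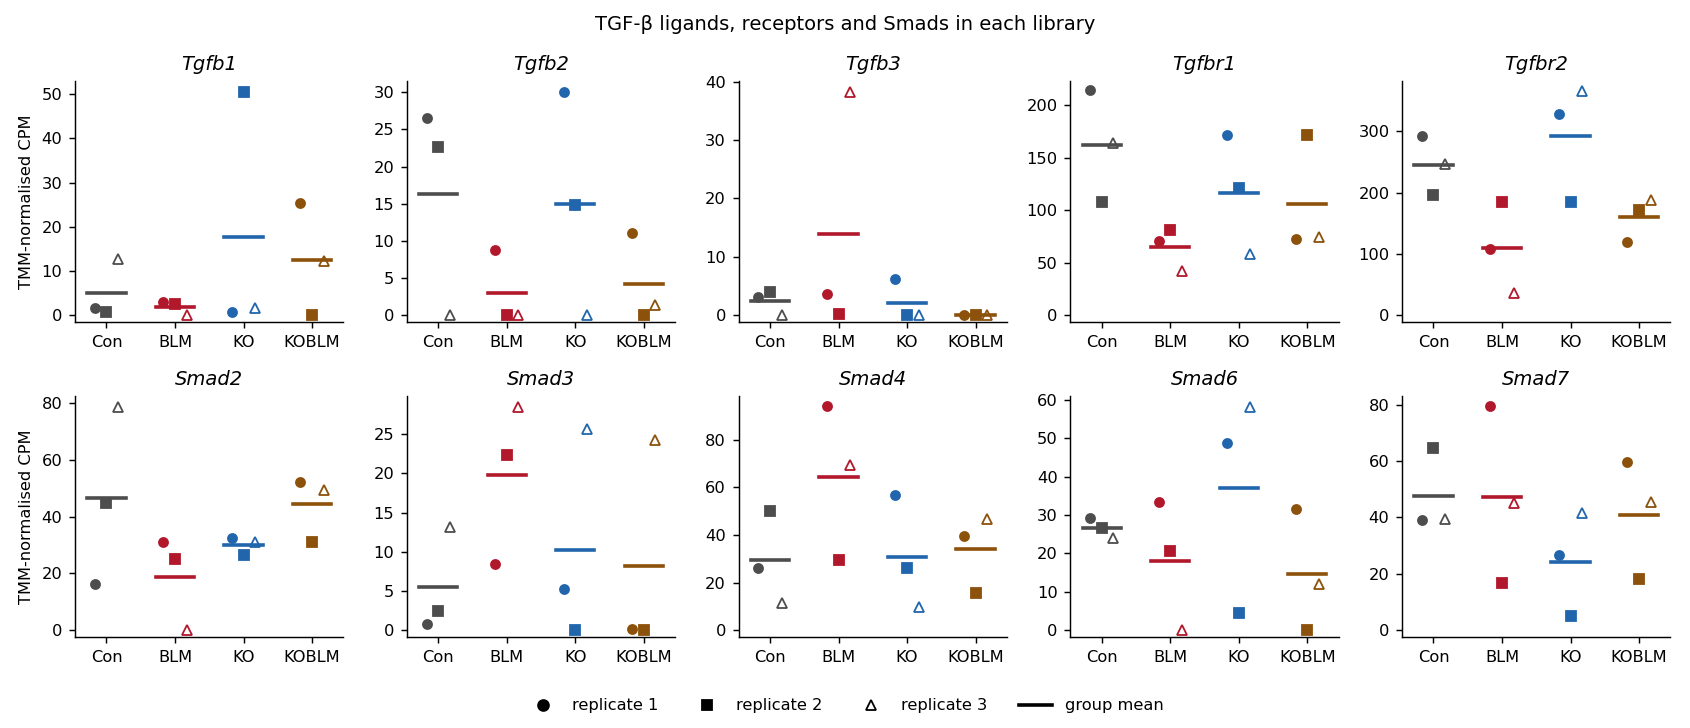
Each panel plots 1 gene, with the group on the x axis and CPM scaled by trimmed mean of M values on a linear y axis. Points are single libraries (1 mouse each, marker shape for the replicate number) and bars are group means (n = 3); only Tgfbr1 and Tgfbr2 had every BLM library below every Con library, and Tgfb3 was at 0 in all 3 KOBLM libraries.

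Most of these genes varied between mice of the same group as much as between groups. Of the 10 genes, 6 had a group in which one library held 3 counts or fewer while another held 50 or more (Tgfb1, Tgfb2, Tgfb3, Smad2, Smad3 and Smad6), a pattern shared by 64.4% of all tested genes. It was found for 1 of the 10 genes in Con, 4 in BLM, 3 in KO and 4 in KOBLM, against 18.5%, 40.8%, 26.3% and 24.8% of tested genes. Tgfbr1, Tgfbr2, Smad4 and Smad7 were above the floor in all 12 libraries. Spearman correlations across genes between libraries of one group were 0.797 to 0.884 in Con and 0.711 to 0.8 in KO. They were 0.693 to 0.844 in KOBLM, while BLM 3 correlated at 0.473 and 0.478 with the other BLM libraries, which correlated at 0.889 with each other.

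Of the 10 genes, only the 2 receptors had Con and BLM libraries that did not overlap. Tgfbr1, the kinase that phosphorylates Smad2 and Smad3, lies at chr4:47353222-47414931 (plus strand, GRCm38). It stood at 214, 108 and 164 CPM in Con and at 70.6, 81.1 and 42.2 CPM in BLM. Tgfbr2, the ligand-binding kinase at chr9:116084293-116175360 (minus strand), stood at 293, 196 and 246 CPM in Con and at 108, 184 and 37.2 CPM in BLM. For both receptors every BLM library was below every Con library, with BLM 3 the lowest of the 12 libraries each time. Groups that did not overlap, with BLM lower, were found for 2 of the 10 genes and for 10.2% of all tested genes. Tgfbr1 averaged 162 ± 53.4 CPM in Con and 64.7 ± 20.1 CPM in BLM (SD, n = 3 each), and the fitted log2 difference was -1.33 ± 0.63 (SE). Tgfbr2 averaged 245 ± 48.6 CPM in Con and 110 ± 73.4 CPM in BLM, a log2 fold change of -1.16 ± 0.59.

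Neither receptor met the threshold used for the calls below, a fold over 1.5 with an unadjusted p under 0.05. The quasi-likelihood test of edgeR gave unadjusted p = 0.0547 for Tgfbr1 and unadjusted p = 0.0681 for Tgfbr2, with an adjusted p of 0.995 for each. The exact permutation test gave p = 0.1 for each, the smallest that 3 against 3 samples allow. Tgfbr1 passed the threshold with the Wald test of DESeq2 (unadjusted p = 0.0422) and when Con and BLM were fitted alone (unadjusted p = 0.0494), and both receptors passed with scaling by library size alone (unadjusted p = 0.0469 for Tgfbr1, unadjusted p = 0.0451 for Tgfbr2). Without BLM 3 the log2 fold changes were -1.09 ± 0.57 for Tgfbr1 and -0.75 ± 0.43 for Tgfbr2 (unadjusted p = 0.076 and 0.105 by edgeR), and the 2 remaining BLM libraries were still below every Con library. Without BLM 2, Tgfbr2 passed the threshold at a log2 fold change of -1.76 (unadjusted p = 0.0209 by edgeR). Macrophage markers, with 17 of 17 above the floor in each group, summed to 12011 to 22719 CPM in Con and to 10166, 11946 and 915 CPM in BLM, and 7 of them were at 0 in BLM 3 (Adgre1, Siglecf, Marco, Fcgr1, Csf1r, Mertk and Msr1). Endothelial markers, 12 of 12 above the floor in each group, summed to 751 to 1488 CPM in Con and to 260 to 1102 CPM in BLM, with 7 of them at 0 in BLM 3. ATII markers summed to 595 to 2196 CPM in Con (12 of 12 above the floor) and to 461 to 550 CPM in BLM (11 of 12), with 5 at 0 in BLM 3, and lymphocyte markers to 40.6 to 96.6 CPM in Con (10 of 11) and to 0 to 29.5 CPM in BLM (8 of 11), with all 11 at 0 in BLM 3. The 6 airway epithelial markers summed to 22.3 to 119 CPM in Con (3 above the floor) and to 175 to 251 CPM in BLM (4 above the floor). Neutrophil markers summed to 98.8, 265 and 3518 CPM in Con and to 5895, 2143 and 115 CPM in BLM. In KO they summed to 316 to 950 CPM and in KOBLM to 1403 to 2241 CPM, without overlap. Alveolar type I markers summed to 391 to 580 CPM in Con and to 407 to 582 CPM in BLM. The part of these cells in the receptor values was not tested.

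In the p300-deleted groups, the receptors did not follow each other. Tgfbr1 stood at 171, 121 and 57.9 CPM in KO and at 72.4, 171 and 74.7 CPM in KOBLM, with full overlap between the groups (116.8 ± 56.9 against 106.2 ± 56.5 CPM, exact permutation p = 1). Tgfbr2 stood at 329, 184 and 365 CPM in KO and at 119, 172 and 188 CPM in KOBLM. The KOBLM libraries of Tgfbr2 were lower except that KOBLM 3 passed KO 2 (293 ± 95.8 against 159.8 ± 36.0 CPM, log2 fold change -0.87 ± 0.58, p = 0.157 by edgeR, exact permutation p = 0.2). The change with bleomycin did not differ detectably between the groups with and without the deletion, by 1.19 ± 0.88 on the log2 scale for Tgfbr1 (unadjusted p = 0.2 for the interaction by edgeR) and by 0.29 ± 0.82 for Tgfbr2 (unadjusted p = 0.732), or by 0.96 ± 0.75 and -0.13 ± 0.57 without BLM 3. Between KOBLM and BLM, log2 fold changes were 0.72 ± 0.63 for Tgfbr1 (unadjusted p = 0.272 by edgeR) and 0.54 ± 0.58 for Tgfbr2 (unadjusted p = 0.366), and 0.48 ± 0.56 and 0.13 ± 0.42 without BLM 3.

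Averaged over groups with and without the deletion, Tgfbr2 was the one member called with bleomycin. It was lower by a log2 fold change of -1.02 ± 0.41 (unadjusted p = 0.0276, adjusted p = 0.9998 by edgeR), with means of 135 CPM in the 6 bleomycin libraries and 269 CPM in the 6 PBS libraries. An exact permutation within each p300 state gave p = 0.01 over 400 arrangements, of which the smallest possible p is 0.005. This was 1 of 10 genes called lower, where 1.75% of all tested genes were called lower in the same contrast. The call held in 7 of the 12 fits that left out 1 library, with log2 fold changes between -1.32 and -0.81 over the 12 fits, and it was lost without Con 1, BLM 1, KO 1, KO 3 or KOBLM 1. Without BLM 3 it was kept, at -0.81 ± 0.29 (unadjusted p = 0.0136 by edgeR). The macrophage marker sum was highest in KO 3 (37529 CPM) and lowest in BLM 3 (915 CPM), which were also the libraries with the highest and the lowest Tgfbr2. After BLM 3, BLM 1 and KOBLM 1 were the next lowest in both (10166 and 10241 CPM of markers, Tgfbr2 at 108 and 119 CPM). Among the remaining libraries the orders were not the same. KOBLM 2 and KOBLM 3 (19539 and 19284 CPM of markers) had Tgfbr2 at 172 and 188 CPM, and Con 1 (13015 CPM of markers) at 293 CPM. The part of macrophage RNA in the Tgfbr2 values was not tested. Tgfbr1 was not called in this contrast (-0.73 ± 0.44, unadjusted p = 0.12 by edgeR, and -0.62 ± 0.38 without BLM 3), and it was called without KOBLM 2 (unadjusted p = 0.0489 by edgeR).

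Neither receptor was called in BLM against Con. The starts of both receptor genes are shown as a description, from 250 bases before to 50 bases after the start of transcription (RefSeq, GRCm38.p6). Capitals mark 4 short motifs on either strand: the GC box GGGCGG read by Sp factors, the CAGAC of Smad proteins, TTGCNNAA of C/EBP factors, and the CCAAT box. No marked motif overlapped another. Tgfbr1 is on the plus strand at chr4:47352972-47353271 and Tgfbr2 on the minus strand at chr9:116175314-116175613.
Tgfbr1: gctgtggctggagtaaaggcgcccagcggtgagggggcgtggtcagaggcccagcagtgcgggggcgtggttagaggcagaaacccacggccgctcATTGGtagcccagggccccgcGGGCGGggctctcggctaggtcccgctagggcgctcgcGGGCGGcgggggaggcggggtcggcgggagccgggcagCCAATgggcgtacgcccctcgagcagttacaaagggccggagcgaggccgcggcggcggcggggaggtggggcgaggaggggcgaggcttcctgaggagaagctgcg
Tgfbr2: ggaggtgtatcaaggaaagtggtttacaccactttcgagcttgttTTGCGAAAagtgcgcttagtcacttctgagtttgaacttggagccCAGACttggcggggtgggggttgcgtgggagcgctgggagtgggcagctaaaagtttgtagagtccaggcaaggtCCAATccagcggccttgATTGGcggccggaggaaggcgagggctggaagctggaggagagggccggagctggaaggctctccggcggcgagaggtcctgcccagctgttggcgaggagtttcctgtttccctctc
The starts differed in composition and in the motifs found. The Tgfbr1 window was 74.7% G and C with 34 CpG pairs, and that of Tgfbr2 was 59.0% with 15, where the median of 32851 such mouse windows was 52.7% with 7. Tgfbr1 held 2 GC boxes and Tgfbr2 held none (35.7% of windows held at least one). Tgfbr2 held 1 CAGAC and 1 TTGCNNAA, and Tgfbr1 held neither (49.6% and 10.8% of windows). Each held 2 CCAAT boxes (37.4% of windows). These letters are a description of the windows, and no binding was measured in the files used here.

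The ligands were scarce, and which ligand led changed from mouse to mouse. Tgfb1, the isoform most studied in fibrosis (chr7:25687002-25705077, plus strand), was counted 13, 7 and 145 times in Con, 21, 17 and 0 in BLM, 8, 306 and 21 in KO, and 181, 0 and 102 in KOBLM. Tgfb2 (chr1:186622792-186705989, minus strand) was counted 208, 209 and 0 times in Con, 60, 0 and 1 in BLM, 283, 90 and 0 in KO, and 79, 0 and 12 in KOBLM. Tgfb3 (chr12:86056745-86079041, minus strand) was counted 25, 37 and 0 times in Con, 25, 1 and 529 in BLM, 59, 0 and 0 in KO, and 0 in each KOBLM library. Each ligand was thus at 0 in at least 2 of the 12 libraries and reached 283 counts or more in at least one other. The ligand with the most counts was Tgfb1 in 6 libraries, Tgfb2 in 4 and Tgfb3 in 1, and KOBLM 2 had no count of any ligand. Summed over the 3 ligands, Con libraries held 145 to 253 counts, BLM libraries 18 to 530, KO libraries 21 to 396 and KOBLM libraries 0 to 260.

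**Figure D2:**
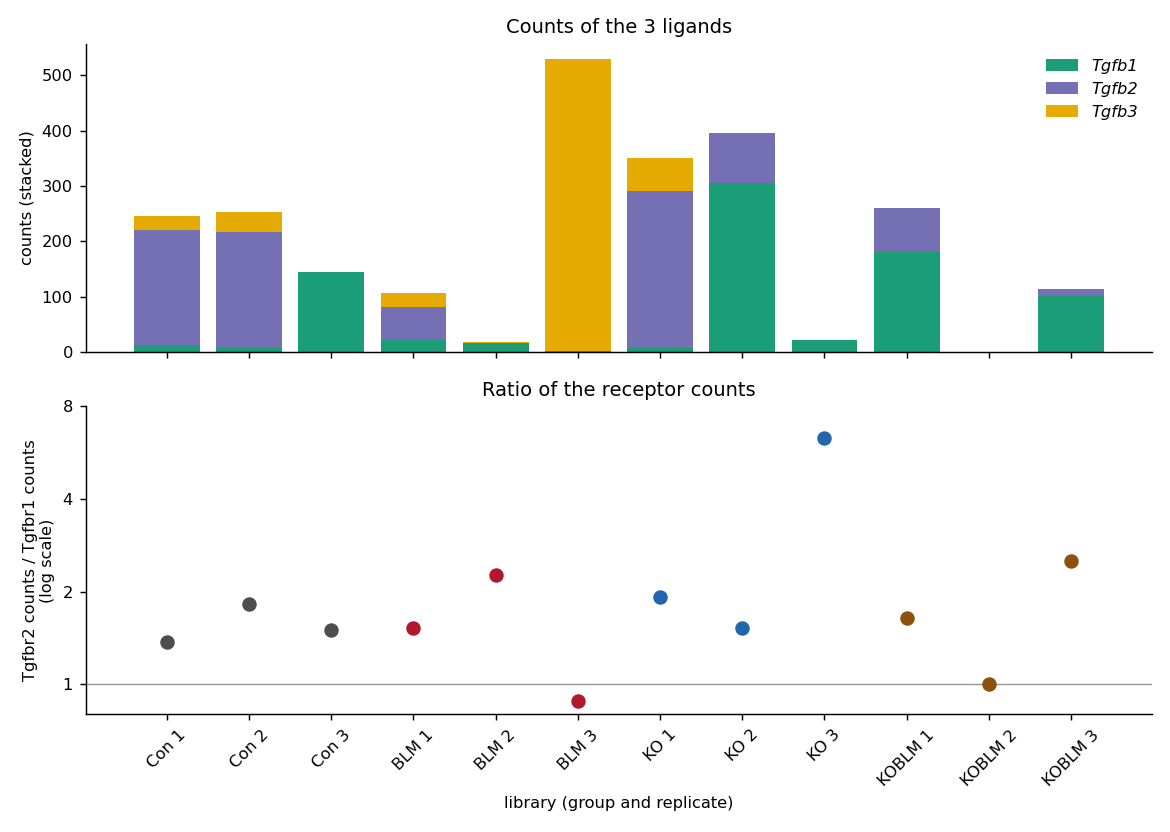
The upper panel stacks the counts of the 3 ligands in each of the 12 libraries, with libraries on the x axis and counts on the y axis. The lower panel gives the ratio of Tgfbr2 to Tgfbr1 counts on a log scale, which ran from 0.88 in BLM 3 to 6.3 in KO 3 and was above 1 in the other 10 libraries.

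Tgfb1 and Tgfb2 did not differ between groups beyond their spread. Tgfb1 averaged 5.05 ± 6.68 CPM in Con, 1.85 ± 1.63 in BLM, 17.7 ± 28.4 in KO and 12.6 ± 12.7 in KOBLM (SD, n = 3 each), and the mean of KO rested on KO 2 at 50.4 CPM. The log2 fold changes were -1.45 ± 2.49 in BLM against Con (unadjusted p = 0.57 by edgeR) and 2.76 ± 2.60 in KOBLM against BLM (unadjusted p = 0.307), or -0.86 ± 2.43 and 2.17 ± 2.57 without BLM 3. Tgfb2 averaged 16.4 ± 14.3 CPM in Con, 2.94 ± 5.02 in BLM, 14.9 in KO (range 0 to 30.0) and 4.17 ± 6.01 in KOBLM. It was lower with bleomycin in means of both p300 states, 3.55 CPM over the bleomycin libraries and 15.7 CPM over the PBS libraries, while the libraries overlapped (exact permutation p = 0.095, log2 fold change -2.16 ± 2.05 with p = 0.311 by edgeR, and -1.87 ± 2.02 without BLM 3).

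Tgfb3 was the one member called between KOBLM and BLM, and the size of the difference came from 1 library. It stood at 3.64, 0.147 and 38.2 CPM in BLM and at 0 in all 3 KOBLM libraries. BLM 2 held only 1 count, which is under the floor, so the lack of overlap between the groups rested on that count. Taking the KOBLM group at the floor of 3 counts per library, the level of Tgfb3 there was lower by a factor of at least 39.3 than in BLM, or at least 5.32-fold lower without BLM 3. The second bound rested on BLM 1, with 25 counts. The call (unadjusted p = 0.0343, adjusted p = 1 by edgeR) made 1 of 10 genes lower, where 1.78% of all tested genes were called lower. Groups that did not overlap with KOBLM lower were found for this 1 gene of 10 and for 4.65% of tested genes (exact permutation p = 0.1, the smallest possible). The call was lost without BLM 3 (unadjusted p = 0.0876 by edgeR), without any one of the KOBLM libraries and with a replicate block (unadjusted p = 0.0779). BLM 3 is the library with pluripotency markers, and of the 8912 tested genes with at least 10 CPM on average, Pou5f1, itself one of those markers, was the one whose log2 CPM followed Tgfb3 most closely over the 12 libraries (Pearson r = 0.92, a description in which all points share library and depth). The part of those cells in the Tgfb3 counts was not tested. The 3′ end of Tgfb3 also overlaps Ttll5 on the other strand, which had 1187 counts over all libraries, and whether reads were counted by strand is not given in the sources used here.

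The receptor-activated Smads, which carry the signal from Tgfbr1, moved in no common direction. Smad2 (chr18:76241580-76310963, plus strand) stood at 16.4, 44.9 and 78.7 CPM in Con, 31.0, 25.1 and 0 in BLM, 32.6, 26.5 and 31.2 in KO, and 52.4, 31.2 and 49.5 in KOBLM. Its KOBLM libraries were all above its BLM libraries, the narrowest gap being 331 counts in KOBLM 2 (31.25 CPM) against 213 in BLM 1 (31.02 CPM), and the 0 of BLM 3 set the distance of the means (44.4 ± 11.4 against 18.7 ± 16.5 CPM, exact permutation p = 0.1). Groups that did not overlap with KOBLM higher were found for this 1 gene of 10 and for 6.14% of tested genes. The log2 fold change of Smad2 in KOBLM against BLM was 1.25 ± 1.42 (unadjusted p = 0.396 by edgeR), and 0.66 ± 0.82 without BLM 3 (unadjusted p = 0.431). Smad3 (chr9:63646767-63757994, minus strand) stood at 0.764, 2.49 and 13.2 CPM in Con and at 8.45, 22.3 and 28.4 in BLM, and it was at 5.19, 0 and 25.6 in KO and at 0.14, 0 and 24.2 in KOBLM. The highest Con library of Smad3 exceeded the lowest BLM library, and the log2 fold change was 1.84 ± 2.46 in BLM against Con (unadjusted p = 0.465 by edgeR) and -1.28 ± 2.42 in KOBLM against BLM (unadjusted p = 0.605). Without BLM 3 they were 1.48 ± 2.60 and -0.92 ± 2.60. Smad3 was called lower in KOBLM against BLM when KOBLM 3, the one KOBLM library above the floor, was left out.

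Smad4 (chr18:73639009-73703780, minus strand), the partner shared by all receptor-activated Smads, was present in every library. It stood at 26.2, 50.2 and 11.5 CPM in Con, 94.2, 29.5 and 69.4 in BLM, 56.8, 26.2 and 9.57 in KO, and 39.8, 15.6 and 46.7 in KOBLM. BLM had the highest mean (64.4 ± 32.7 CPM against 29.3 ± 19.5 in Con), but Con 2 lay above BLM 2 (log2 fold change 1.13 ± 0.99, unadjusted p = 0.269 by edgeR, and 1.08 ± 0.96 without BLM 3). The 3 groups other than BLM had means between 29.3 and 34.0 CPM.

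The inhibitory Smads gave no called difference. Smad6 (chr9:63953076-64022059, minus strand), which chiefly restrains bone morphogenetic protein (BMP) receptors, was the most even of the 10 genes within Con, at 29.2, 26.6 and 23.9 CPM. It ran from 0 to 33.4 CPM in BLM, from 4.45 to 58.1 in KO and from 0.0944 (1 count) to 31.5 in KOBLM. Smad7 (chr18:75367529-75395935, plus strand), which competes with Smad2 and Smad3 at Tgfbr1, stood at 39.0, 64.6 and 39.6 CPM in Con and at 79.4, 16.7 and 45.1 in BLM. It stood at 26.5, 4.94 and 41.5 CPM in KO and at 59.5, 18.03 and 45.3 in KOBLM. Means of Smad7 in Con and BLM were 47.7 ± 14.6 and 47.1 ± 31.4 CPM, a log2 fold change of -0.02 ± 0.98 (unadjusted p = 0.985 by edgeR), or 0.01 ± 0.96 without BLM 3. For Smad6 the log2 fold change was -0.57 ± 1.83 in BLM against Con and -0.31 ± 1.83 in KOBLM against BLM (unadjusted p = 0.762 and 0.87 by edgeR), or 0.02 ± 1.46 and -0.89 ± 1.44 without BLM 3.

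Over the 10 genes, 0 were called in BLM against Con (4.27% of all tested genes were called in either direction), and 0 had an unadjusted p under 0.05 by edgeR, while DESeq2 called 1, Tgfbr1 (7.25% of tested genes). In KOBLM against BLM 1 was called (3.16% of tested genes), in KO against Con 0 (1.44%, or 0.536% higher and 0.904% lower) and in KOBLM against KO 0 (1.69%, or 1.16% higher and 0.529% lower). The interaction called 0 (2.82%, or 1.51% higher and 1.31% lower). The bleomycin contrast over both p300 states called 1 (4.47%, or 2.72% higher and 1.75% lower) and the p300 contrast over both treatments 0 (2.9%, or 0.958% higher and 1.95% lower). No gene of the 10 had BLM above Con without overlap (5.81% of tested genes did). The groups of all 10 overlapped in KO against Con, where 3.26% of tested genes had KO above Con without overlap and 5.82% below, and in KOBLM against KO, where 3.85% and 3.02% did so. For KO against Con unadjusted p-values of the 10 genes by edgeR ran from 0.343 to 0.963. The smallest were 0.0714 in KOBLM against KO, 0.0577 for the interaction and 0.0522 for the p300 contrast. DESeq2 called 0 of the 10 in KO against Con, where it called 2.87% of tested genes. It called 1 of the 10, Tgfb3, in KOBLM against KO (3.52%), the interaction (4.79%) and the p300 contrast (4.4%). After adjustment over all tested genes no gene of the 13054 passed 0.05 by edgeR in any of these 7 contrasts. The median log2 fold change of the 10 genes was -0.86 in BLM against Con, where that of all tested genes was -0.08, with 7 of 10 estimates below 0. Without BLM 3 the medians were -0.54 and 0.05. In KOBLM against BLM the medians were 0.15 for the 10 genes and 0.09 for all tested genes, and -0.15 and -0.06 without BLM 3.

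**Figure D3:**
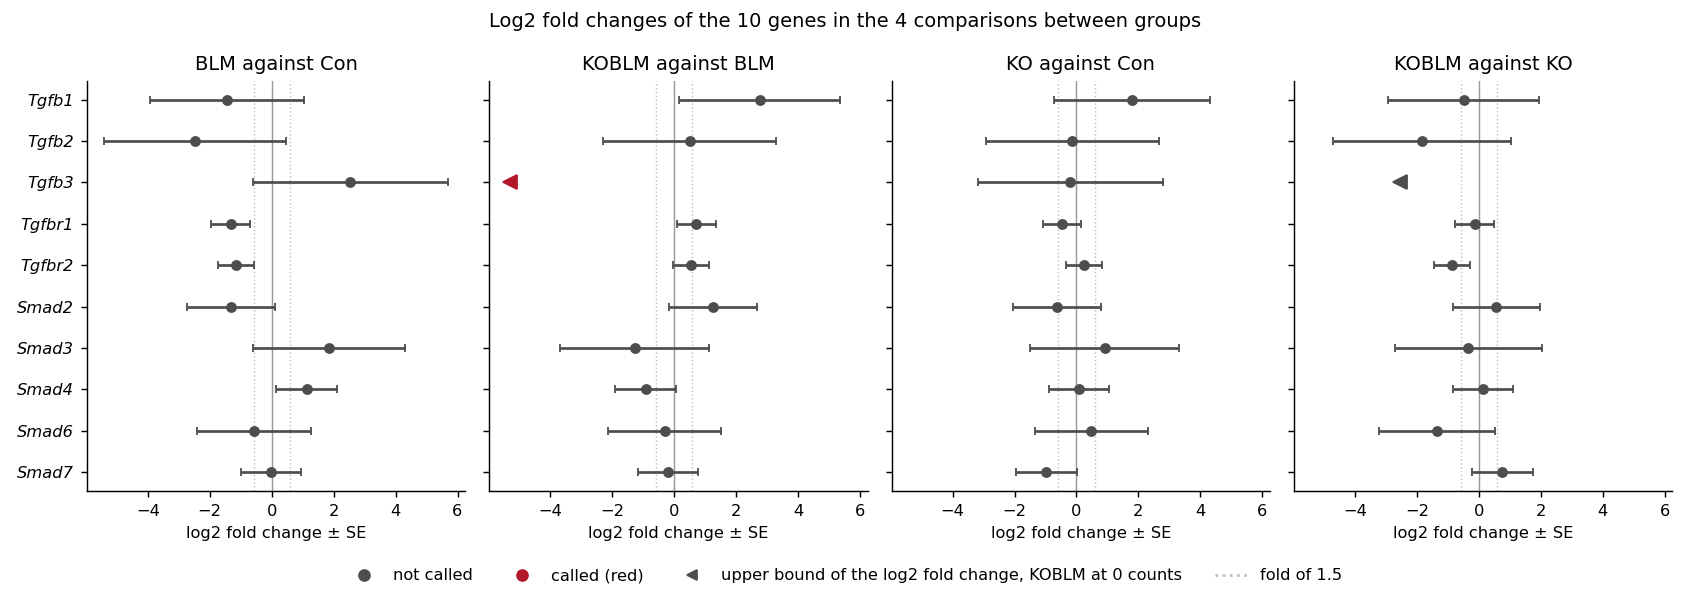
Each panel is 1 comparison between groups, with the log2 fold change by edgeR on the x axis and the 10 genes on the y axis. Bars are standard errors (3 libraries a group), dotted lines mark a fold of 1.5, and triangles are bounds for Tgfb3, whose KOBLM libraries were at 0; the receptor bars in BLM against Con lie below 0, and the red triangle is the one called value.

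The steps before the receptor were read from 24 genes of latency and release, of which 22 were tested. In BLM against Con, 1 was called higher and 0 lower, where 2.19% and 2.08% of tested genes were called. The called gene was Thbs1, thrombospondin 1, which can release TGF-β from its latent form. Thbs1 stood at 16.0, 37.8 and 36.9 CPM in Con and at 448, 203 and 275 CPM in BLM, and at 10.8, 40.2 and 23.7 CPM in KO and 99.98, 107 and 60.1 CPM in KOBLM. Every bleomycin library was above every PBS library, and KOBLM lay between the PBS groups and BLM. Its log2 fold changes were 3.35 ± 0.70 in BLM against Con (unadjusted p = 0.000269, adjusted p = 0.9 by edgeR), 1.84 ± 0.66 in KOBLM against KO (unadjusted p = 0.0143) and -1.80 ± 0.66 in KOBLM against BLM (unadjusted p = 0.016). The first and the last of these share the BLM libraries. Without BLM 3, Thbs1 was called in both, and Dcn (decorin, a matrix proteoglycan) was called higher in BLM against Con as well. The call of Thbs1 in BLM against Con held in all 6 fits that left out 1 library of those groups. That in KOBLM against BLM was lost without BLM 1 or KOBLM 3, and that in KOBLM against KO without KO 1. The interaction of Thbs1 was not called (-1.51 ± 0.91, unadjusted p = 0.117 by edgeR).

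Of the same list, Itgb6, Bgn and Bmp1 were called lower in KO or in the p300-deleted groups over both treatments. Of all tested genes, 0.904% were called lower in KO against Con and 1.95% in the p300 contrast over both treatments. Itgb6, a subunit of the αvβ6 integrin that frees TGF-β at epithelial surfaces, had 0, 65 and 359 counts in Con and 0 in each KO library. It was at least 36.3-fold lower in KO, and Con 1 was also at 0. The call was lost without Con 2, Con 3 or any one of the KO libraries. Bgn (biglycan, a matrix proteoglycan) was called lower in KO against Con (89, 203 and 493 counts against 35, 17 and 0, log2 fold change -3.55 ± 1.51, unadjusted p = 0.0331 by edgeR) and over both treatments (-3.02 ± 1.04, unadjusted p = 0.0113). The call in KO against Con was lost without Con 3 or KO 2, and the other without BLM 1. Bmp1, a metalloproteinase of matrix assembly, was called lower over both treatments, with 0 counts in each KO library and 0, 0 and 4 in KOBLM, a call lost without Con 2, KOBLM 1 or any one of the KO libraries. The 2 most abundant genes of the list were Furin, the protease that cleaves TGF-β precursors (38.0 to 626 CPM), and Itgb1 (142 to 555 CPM). Their log2 fold changes in BLM against Con were 0.12 ± 0.70 and -0.25 ± 0.49 and were not called.

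Among 11 co-receptors and adaptors (10 tested), Nrp1 was called lower and Cd109 higher in BLM against Con, where 2.08% and 2.19% of tested genes were. Nrp1, neuropilin 1, a co-receptor for TGF-β and for vascular ligands, stood at 461, 493 and 636 CPM in Con and at 182, 110 and 73.1 CPM in BLM, with a wide gap between the groups. It stood at 351, 295 and 259 CPM in KO and at 596, 130 and 300 CPM in KOBLM. The log2 fold changes of Nrp1 were -2.12 ± 0.58 in BLM against Con (unadjusted p = 0.00246 by edgeR) and 1.49 ± 0.57 in KOBLM against BLM (unadjusted p = 0.0196), and it was called in both without BLM 3 too. The second call was lost without BLM 2 or KOBLM 1. KOBLM 1 had the highest endothelial marker sum of all libraries, at 2401 CPM against 467 and 436 CPM in KOBLM 2 and KOBLM 3. In KO these markers summed to 129 to 662 CPM. The part of endothelial RNA in the Nrp1 values was not tested. Cd109, a surface protein that binds TGF-β and inhibits signalling, had 0 counts in each Con library and 117, 135 and 0 in BLM, at least 38.0-fold higher, and the call was lost without any one of the Con libraries, BLM 1 or BLM 2. The most abundant genes of the list, Dab2 (50.2 to 1031 CPM) and Fkbp1a (303 to 591 CPM), an adaptor and an inhibitor of Tgfbr1 activity, were not called in any comparison between groups.

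Of 22 Smad cofactors and turnover genes (21 tested), 0 were called in BLM against Con, where 2.19% of tested genes were called higher and 2.08% lower, and 1 was called higher without BLM 3, namely Tgif1 (2.94% of tested genes). Tgif1, a co-repressor of Smads, was called higher with bleomycin over both p300 states (log2 fold change 1.42 ± 0.63, unadjusted p = 0.0403 by edgeR). Its libraries overlapped, with Con at 10.5 to 46.8 CPM, BLM at 12.9 to 143, KO at 21.8 to 59.0 and KOBLM at 87.0 to 134, and the call held without Con 1 or BLM 3 but not without any other library. Tgif2 was called lower in KOBLM against BLM, its counts being 9, 35 and 2473 for BLM against 2, 0 and 4 for KOBLM, and this call was lost without BLM 3 or any one of the KOBLM libraries. Usp11, a deubiquitinase of the type I receptor, had 148, 97 and 14 counts in Con and 0 in each KO library, at least 28.8-fold lower, a call lost without Con 1 or any one of the KO libraries. Ski, a repressor of Smad complexes (237 to 558 CPM), and Sp1 (92.8 to 355 CPM) were the most abundant genes of the list. Sp1, the factor of the GC box, stood at 335, 355 and 262 CPM in Con and at 214, 170 and 92.8 CPM in BLM without reaching the threshold (log2 fold change -0.997 ± 0.477, unadjusted p = 0.0551 by edgeR).

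Of 28 genes of the BMP and activin branch, 18 were tested. In BLM against Con, 1 was called higher and 1 lower, where 2.19% and 2.08% of tested genes were called. Gdf15, a stress-induced member of the TGF-β superfamily, was the most abundant gene of the list. It stood at 286, 364 and 407 CPM in Con and at 71.1, 170 and 19.7 CPM in BLM, and at 313, 632 and 264 CPM in KO and 408, 359 and 416 CPM in KOBLM. BLM was thus below every other group without overlap. The log2 fold change of Gdf15 was -2.02 ± 0.66 in BLM against Con (unadjusted p = 0.00814 by edgeR) and 2.18 ± 0.66 in KOBLM against BLM (unadjusted p = 0.00515), and each call held in all 6 fits that left out 1 library of the groups compared. Fst, follistatin, which binds activins, had 0 counts in each Con library and 107, 312 and 331 in BLM, at least 87.9-fold higher, or at least 94.8-fold without BLM 3. Fst had 0, 43 and 0 counts in KO and 19, 0 and 12 in KOBLM, and it was called higher in KO against Con, at least 7.30-fold. That call was lost without KO 2 or any one of the Con libraries. Bmp2 had 4, 62 and 317 counts in Con and 0 in each KO and KOBLM library, at least 33.0-fold lower in KO than in Con, a call lost without Con 2, Con 3 or any one of the KO libraries. Bmpr1a, a BMP type I receptor, was called lower in KOBLM against BLM (77, 35 and 1355 counts against 0, 30 and 5) and the call was lost without BLM 3, KOBLM 1 or KOBLM 3. Bmpr2, the second most abundant gene of the list (27.8 to 248.5 CPM), was not called.

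A further list held 28 genes known as targets of the pathway, of which 27 were tested. This list was chosen with earlier results of these data known. Its share of called genes beside that of all tested genes is therefore a description and no test. Smad activity was not measured, and whether changes of these transcripts came from TGF-β or from other signals was not tested. In BLM against Con 7 were called higher and 0 lower, where 2.19% and 2.08% of tested genes were called, and 9 were called higher without BLM 3, where 2.94% were. The median log2 fold change of the list was 0.42, against -0.08 for all tested genes. The 7 were Id2, Cdkn1a, Col1a2, Col3a1, Fn1, Acta2 and Timp1. Col1a2 and Col3a1 encode fibrillar collagen chains and Fn1 encodes fibronectin. Col1a2 stood at 24.4, 106 and 214 CPM in Con and at 891, 635 and 370 CPM in BLM, and Col3a1 at 25.6, 81.8 and 30.8 CPM and at 457, 358 and 104 CPM. Each was higher in every BLM library than in any Con library, with log2 fold changes of 2.46 ± 0.89 and 2.73 ± 0.998 (unadjusted p = 0.0154 and 0.0157 by edgeR). Fn1 stood at 363, 260 and 396 CPM in Con and at 1351, 1055 and 433 CPM in BLM (1.48 ± 0.59, unadjusted p = 0.0246). Acta2, smooth muscle actin, was counted 16, 16 and 129 times in Con and 495, 483 and 74 times in BLM, so the groups overlapped at BLM 3. Calls were lost for Col1a2 without Con 1, for Col3a1 without Con 1, Con 3 or BLM 1, and for Fn1 and Acta2 without Con 1, Con 2, BLM 1 or BLM 2.

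The other called targets were a cell cycle inhibitor, a transcriptional regulator and a protease inhibitor. Cdkn1a, which encodes the inhibitor p21, stood at 445, 468 and 214 CPM in Con and 1319, 918 and 331 CPM in BLM. It was called in the p300-deleted groups as well, at 404, 249 and 225 CPM in KO and 824, 1119 and 634 CPM in KOBLM (log2 fold change 1.19 ± 0.54 in BLM against Con and 1.55 ± 0.55 in KOBLM against KO, unadjusted p = 0.0462 and 0.0132 by edgeR). Id2 stood at 140, 150 and 114 CPM in Con and at 641, 592 and 168 CPM in BLM (1.80 ± 0.74, unadjusted p = 0.0298). The calls of Cdkn1a and Id2 in BLM against Con were lost without any one of the Con libraries, BLM 1 or BLM 2, and that of Cdkn1a in KOBLM against KO without KO 3. Timp1, an inhibitor of matrix metalloproteinases, was counted 6, 0 and 0 times in Con and 589, 588 and 1902 in BLM, and this call held without any one library. It had 0 counts in each KO library and 4, 0 and 135 in KOBLM, so its call in KOBLM against KO (at least 15.9-fold higher) rested on KOBLM 3.

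**Figure D4:**
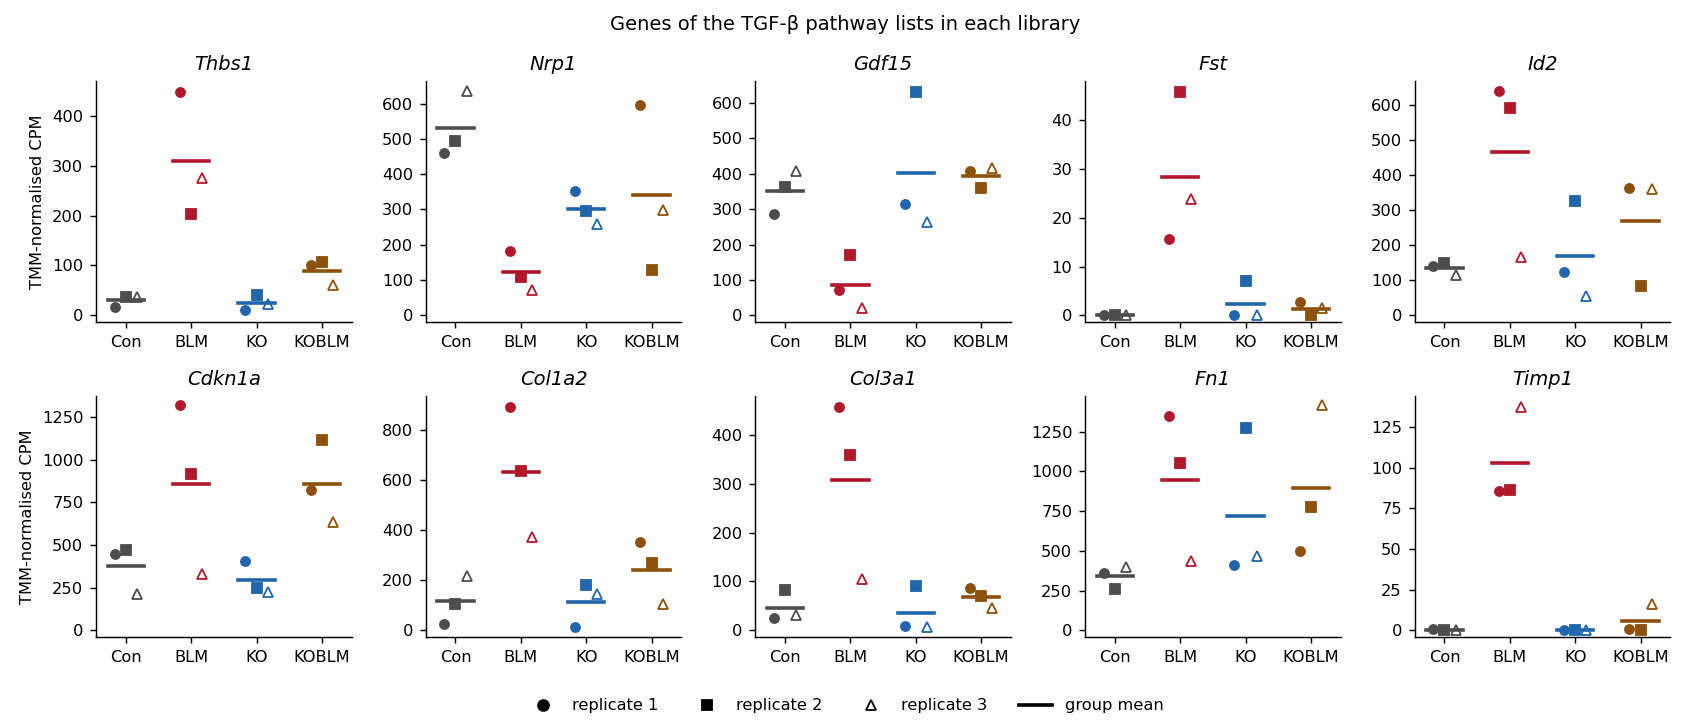
Each panel plots a gene of the pathway lists called in BLM against Con, with group on the x axis and CPM scaled by trimmed mean of M values on a linear y axis from 0. Points are single libraries with marker shapes for replicate numbers and bars are group means (n = 3); Thbs1, Fst and Timp1 were near the floor or low in the PBS groups and highest in BLM, and Gdf15 was lowest in BLM.

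Between KOBLM and BLM, 0 targets were called higher and 2 lower, where 1.39% and 1.78% of tested genes were called. Col3a1 stood at 86.5, 69.3 and 45.2 CPM in KOBLM (log2 fold change -2.19 ± 0.98 against BLM, unadjusted p = 0.0411 by edgeR). The highest KOBLM library was below the lowest BLM library. Pmepa1, which encodes an inhibitor of Smad signalling induced by TGF-β, stood at 107, 236 and 36.9 CPM in BLM and at 27.3, 25.2 and 40.5 CPM in KOBLM, with BLM 3 below KOBLM 3 (-2.03 ± 0.82, unadjusted p = 0.0258). Both were called without BLM 3 too. The call of Col3a1 was lost without BLM 1, BLM 2 or any one of the KOBLM libraries, and that of Pmepa1 without BLM 2, KOBLM 1 or KOBLM 2. In KO against Con, 1 of 27 targets was called lower, where 0.904% of tested genes were. It was Snai1, with 97, 28 and 0 counts in Con and 0 in each KO library, and its call was lost without Con 1, Con 2 or any one of the KO libraries. Junb, the most abundant target, stood at 743, 747 and 581 CPM in Con and at 2472, 1669 and 67.9 CPM in BLM, and was called higher without BLM 3. Averaged over both p300 states, Id2, Cdkn1a, Col1a2, Col3a1, Fn1, Timp1 and Tgif1, which is also a target, were called higher with bleomycin, 7 of 27, where 2.72% of tested genes were. The calls of Cdkn1a, Col1a2, Col3a1 and Timp1 held in all 12 fits that left out 1 library, that of Id2 in 4, that of Fn1 in 3 and that of Tgif1 in 2. Outside the targets, Thbs1 was called higher in the same contrast in all 12 fits, Fst higher in 7, Nrp1 lower in 7 and Gdf15 lower in 5. Averaged over both treatments, Pmepa1 and Timp1 were called lower in the p300-deleted groups, 2 of 27, where 1.95% of tested genes were. In the other lists Thbs1, Tgif2, Usp11 and Bmp2 were called lower and Gdf15 higher (0.958% of tested genes), beside Bgn and Bmp1 above.

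Fibroblast markers were read beside the matrix genes. Of 11 such markers, 9 in Con and 8 in BLM were above the floor in some library, and they summed to 143 to 500 CPM in Con libraries, 814 to 1547 in BLM libraries, 79.6 to 422 in KO libraries and 154 to 678 in KOBLM libraries. Col1a1, Col1a2 and Acta2 are in both lists and carried that difference. The 8 markers that are not in the target list, a split chosen after the values were seen, summed to 95.0, 233 and 133 CPM in Con and to 204, 219 and 0 CPM in BLM, and the groups overlapped. The 8 markers did not move together. Inmt stood at 75.6, 136 and 93.3 CPM in Con and lower, at 42.5, 49.0 and 0 CPM, in BLM. Dcn stood at 9.80, 50.1 and 30.6 CPM in Con and at 106, 122 and 0 CPM in BLM. Pdgfra was counted 44, 217 and 104 times in Con and 287, 163 and 0 times in BLM. Pdgfrb was counted 0, 29 and 0 times against 48, 84 and 0, and Col13a1 31, 152 and 0 times against 49, 79 and 0. Lum was at 0 in all 6 Con and BLM libraries, as was Tcf21, and Fgf10 was at 0 in each of these libraries except Con 2. The part of fibroblast RNA in the values of the collagens, Fn1 and Acta2 was not tested.

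**Figure D5:**
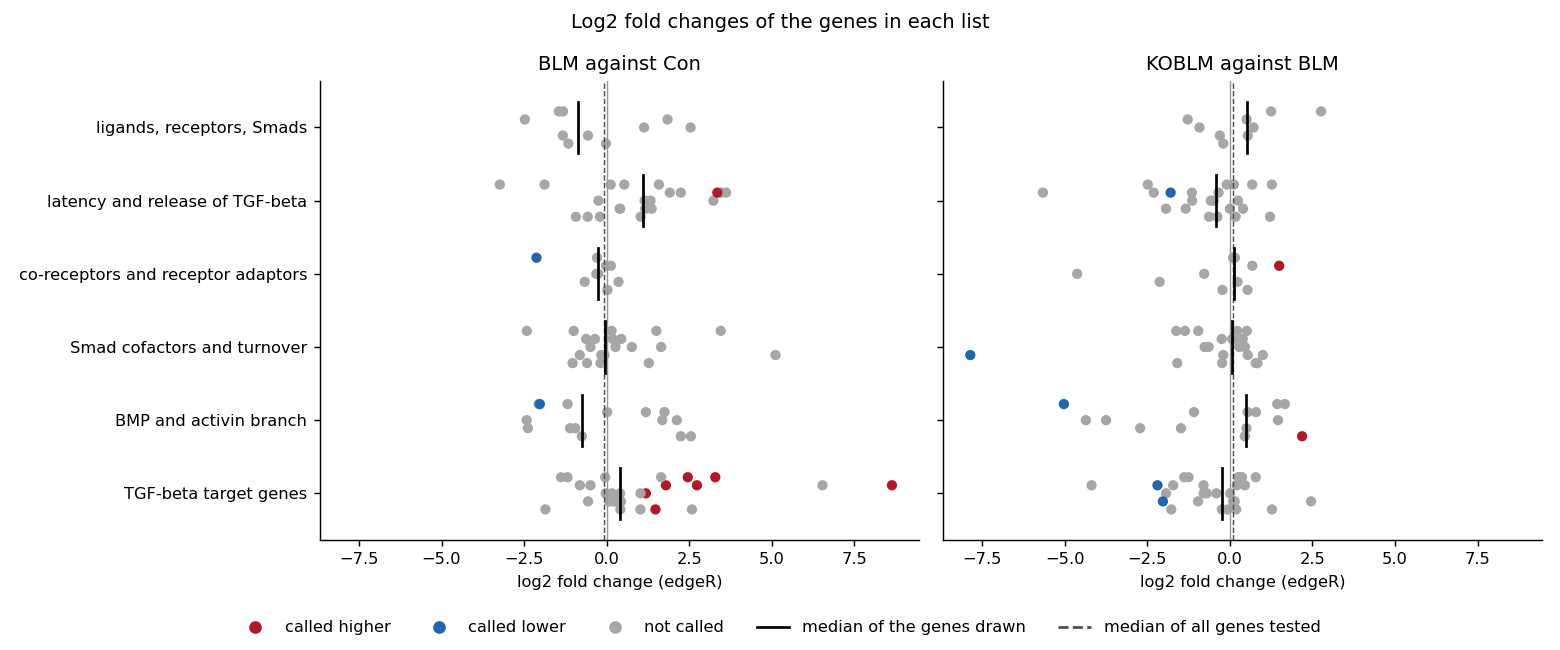
The panels show BLM against Con and KOBLM against BLM, with the log2 fold change by edgeR on the x axis and the gene lists on the y axis. Each point is a tested gene, red or blue where called higher or lower, except that 4 genes in the first panel and 5 in the second, with a group at 3 counts or fewer in every library, are not drawn. Called genes are among those not drawn, namely Cd109 and Fst in the first panel and Tgfb3 in the second. Solid lines are medians of the genes drawn and dashed lines the medians of all tested genes (-0.08 and 0.09). Without Tgfb3 the solid line of the ligands, receptors and Smads in the second panel is at 0.51, against 0.15 for all 10.

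The genes whose levels most resembled those of the members were not the same for the 2 receptors. Over the 12 libraries, among 8912 genes with at least 10 CPM on average, Tbc1d9, Naaa and Cdc42ep3 were most like Tgfbr2 (Pearson r = 0.971, 0.971 and 0.955 of log2 CPM). Baz1a, E430025E21Rik and Tmem245 were most like Tgfbr1 (r = 0.899, 0.89 and 0.879). Smad2 was most like Ddx58, 9530068E07Rik and Manf (r = 0.983, 0.982 and 0.982) and Smad6 most like Wrnip1, Slc41a1 and Med25 (r = 0.978, 0.977 and 0.975), and both members were at 0 in BLM 3. Closest to Smad3 were Plrg1, Rps12 and Rplp0 (r = 0.897, 0.881 and 0.87), to Smad4 Hus1, Chmp6 and Ptprs (r = 0.929, 0.904 and 0.899), and to Smad7 Pitpnm2, Ppic and Chaf1a (r = 0.815, 0.812 and 0.796). Closest to Tgfb1 were Il1f9, Tnip1 and Gadd45a (r = 0.892, 0.886 and 0.882), to Tgfb2 Gm20199, Ptar1 and Daam1 (r = 0.924, 0.906 and 0.905), and to Tgfb3, after Pou5f1, Tonsl and Shmt1 (r = 0.899 and 0.859). Among the 10 genes, the closest pair was Tgfbr2 and Smad2 (r = 0.74, and -0.192 without BLM 3). Tgfbr1 and Tgfbr2 had r = 0.614, and 0.368 without BLM 3. Without BLM 3, the 3 genes named for Smad2 had r = 0.716, 0.704 and 0.695, and those named for the other members had r between 0.766 and 0.962. All these correlations are over points that share library and depth and are given as a description.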

How the data were processed

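RNA of sorted ATII cells was read from the 3′ end (QuantSeq, 1 mouse per library, 12 libraries in 4 groups of 3). The authors deposited raw read counts per gene for each library, and the submitters' processing notes name Bowtie2, edgeR and mm10. The counting program and its annotation are not given in the sources used here. Of 23282 entries, 79 shared 35 symbols and were summed, none of them a member, which left 23238 symbols. Genes were filtered with filterByExpr (minimum count 10, minimum total 15), scaled by trimmed mean of M values and fitted over all 4 groups in edgeR 4.0.16 (R 4.3.3) with quasi-likelihood tests and Benjamini-Hochberg adjustment over the 13054 genes kept. The common dispersion was 2.08, and 8 residual degrees of freedom remained. A gene was called at a fold over 1.5 with an unadjusted p under 0.05. DESeq2 1.42.0 was an alternative. Exact permutation tests over samples went through every arrangement with numpy 2.4.6 and were two-sided, and the scripts were tested on simulated data. Main effects averaged the treatment or the p300 difference over the other factor. Totals were 7005005 to 11153154 counts, and reads carry no molecular identifiers here, so the floor of 3 counts covers counting error only. The alternatives were other scalings, no filter, DESeq2, a replicate block, the compared groups alone, other call rules and leaving out each library. All 10 members, every gene of the lists called in a comparison between groups or a main effect, and the 2 genes of highest mean in each list were named, with the 3 genes most like each member. The members and the lists were chosen with earlier results of these data known. Positions are from GENCODE M21 (GRCm38), and 6 of the 10 members matched the RefSeq promoter table. The values of 1 target gene are not reported here.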

Additional observations from a re-analysis of the deposited data

Results flagged for a closer look

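The change with bleomycin differed by the edgeR interaction test between the p300-deleted groups and the others for 4 genes of the pathway lists, none of them among the 10 members, and each had an adjusted p of 0.999901 over all tested genes. Of the 10 co-receptors and adaptors tested, 1 was called higher and 1 lower, as in the 18 tested genes of the BMP and activin branch. The other lists held no call, and 1.51% of all tested genes were called higher and 1.31% lower. Cd109 differed by -11.421 on the log2 scale (SE 4.971, unadjusted p = 0.0399), a fitted value that depends on the 0 counts in all Con libraries, and the call was lost without any one of the Con libraries, BLM 1, BLM 2, KO 1, KOBLM 1 or KOBLM 2. Fst differed by -11.793 (SE 4.366, unadjusted p = 0.0189), likewise with 0 counts in all Con libraries, and the call was lost without KO 2. Gdf15 differed by 1.991 (SE 0.905, unadjusted p = 0.0448), and the call held in 3 of 12 fits that left out 1 library, those without BLM 2, BLM 3 or KO 2. Nrp1 differed by 2.305 (SE 0.796, unadjusted p = 0.0116), and the call was lost without KOBLM 1. That library had the highest endothelial marker sum (2401 CPM), and the part of endothelial RNA in this difference was not tested. Without BLM 3 the interaction also called Acta2 and Fn1 lower, 2 of 27 targets, where 2.44% of tested genes were called lower.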

How the results depend on the processing

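Over the 10 members and the called genes, 87 changes were recomputed under the alternatives, giving 1195 values, of which 941 kept direction and side of the threshold, 210 lost and 17 gained the call and 27 changed sign. By fold alone 48.7% to 71.9% of all tested genes were called over the 7 contrasts, against which those member counts are read, and under the other scalings, filters and tools or with the compared groups alone 1.25% to 7.25% were. The number of members called in BLM against Con (0) was 2 with library size alone, 1 with DESeq2, 1 with the compared groups alone, 8 by fold alone and 0 to 1 leaving out a library. In KOBLM against BLM (1) it was 0 with the replicate block, 0 with the compared groups alone, 0 by adjusted p, 6 by fold alone and 0 to 1. In KO against Con (0) it was 4 by fold alone, and in KOBLM against KO (0) 1 with DESeq2 and 5 by fold alone. For the interaction (0) it was 1 without the filter, 1 with DESeq2, 9 by fold alone and 0 to 1, and for bleomycin over both p300 states (1) 0 by adjusted p, 8 by fold alone and 0 to 2. For p300 over both treatments (0) it was 1 with DESeq2 size factors, library size, no filter or DESeq2, 3 by fold alone and 0 to 1. Smad7 in BLM against Con changed sign to 0.065 with DESeq2 or its size factors and 0.026 with library size. Leaving out a library changed signs in BLM against Con for Tgfb1 (-2.02 to 0.608), Tgfb3 (-0.336 to 3.125), Smad6 (-1.372 to 0.021) and Smad7 (-0.629 to 0.38), and in KOBLM against BLM for Tgfb2 (-1.965 to 6.28), Smad6 (-1.542 to 0.501) and Smad7 (-0.601 to 0.408). The same held for Tgfb3 (-7.454 to 0.401) in KO against Con, Tgfbr1 (-0.666 to 0.249) in KOBLM against KO, Tgfb3 with bleomycin (-3.764 to 1.267), Tgfbr2 in the interaction (-0.125 to 0.886) and Tgfbr1 with p300 (-0.142 to 0.285). Without KO 2 Fst in KO against Con, and without KO 1 Tgfb3 in KOBLM against KO, had 0 counts in both groups and a fitted change of 0. The cause of the sign changes was not tested. Over all genes, DESeq2 called 840 against 584 for bleomycin, 947 against 558 in BLM against Con, 755 against 413 in KOBLM against BLM, 374 against 188 in KO against Con, 460 against 221 in KOBLM against KO, 625 against 368 for the interaction and 575 against 379 for p300. Samples with the same replicate number did not deviate together (18 pairs, r from -0.117 to 0.096, 4 of 12 libraries closest to their own number), so the numbers do not pair the mice, and with a replicate block 394, 262, 100, 100, 242, 360 and 219 genes were called in BLM against Con, KOBLM against BLM, KO against Con, KOBLM against KO, the interaction, bleomycin and p300. A log2 SE of 0.41 to 4.68 for the 10 members over the 7 contrasts limits what 3 mice a group can show.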
